A study of Equisetum hyemale and Pteris vittata and Marchantia polymorpha with 22 samples.

Results

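Shoots of the lycophyte *Selaginella moellendorffii*, a spikemoss whose lineage split early from that of all other living vascular plants, were compared after 8 h at 1% O2 (hypoxia, 2 libraries) and after 8 h at 21% O2 (air, 2 libraries). These are 4 of the 22 RNA-seq libraries of a series on land plants, and all 16892 genes in the table of this species are described here. No strain, allele or further agent is named for either group. All plants were kept in darkness from morning to afternoon, so darkness is shared and is not part of the comparison. Each replicate held 3 young shoots of 13-day-old plantlets grown in vitro from shoot cuttings on an MS agar medium with sucrose, although the wording of the study elsewhere calls the material mature sporophytes. Poly(A) RNA was sequenced as stranded libraries, and levels are CPM, read counts scaled to library size. Genes carry the locus numbers of the table, and their functions are those of the best *A. thaliana* hit, which 14538 genes (86.1%) had. A gene called the ADH1 hit is thus a gene whose closest *A. thaliana* protein is ADH1, not a proven ortholog.

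In flowering plants, lack of oxygen halts mitochondrial respiration, and cells turn to glycolysis with ethanolic fermentation: sucrose synthase and phosphofructokinase feed glycolysis, and pyruvate decarboxylase and alcohol dehydrogenase regenerate NAD+. Group VII ethylene response factors (ERFVIIs) activate many of these genes, and plant cysteine oxidases (PCOs) mark the ERFVIIs for breakdown by the N-degron pathway while oxygen is present. The question of the comparison was which genes of a lycophyte shoot respond to the same stress. RNA came from whole shoots, in which fewer cells of a type and less RNA per cell cannot be told apart.

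The 4 libraries had estimated sizes of 16200000 to 19800000 reads, and 15 to 32 genes stood at 0 in each. One of the air columns carries a replicate number that no air label has, and it is called the unnumbered air library. Pairs of levels are those of replicates 1 and 3 for hypoxia, and of the unnumbered library and air 3 for air. Across the 12805 genes above 5 CPM, the SD of the log2 difference was 0.22 between hypoxia 1 and hypoxia 3 and 0.32 between the air libraries. Between hypoxia and air it was 0.45 and 0.37 against the unnumbered air library, for hypoxia 1 and hypoxia 3, but 0.28 and 0.25 against air 3. Air 3 was therefore closer to either hypoxia library than to the other air library, and the results are also given against each air library alone. Markers of a green shoot were abundant: the 50 photosystem and antenna genes summed to 28873 and 31018 CPM under hypoxia, against 30311 CPM in the unnumbered air library and 33287 CPM in air 3. The 2 genes with root hair regulators of the RHD6 and RSL family as best hit summed to 17.1 and 19.98 CPM under hypoxia and to 24.4 and 23.5 CPM in air.

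Large differences were few, and most of them were upwards. Genes were counted as higher or lower when the log2 fold change (log2FC) of CPM + 1 exceeded 1 and the hypoxia libraries both lay beyond both air libraries. Of 16892 genes, 205 were higher under hypoxia (1.21%) and 4 were lower (0.0237%). The lower count was the less stable: it was 17 without hypoxia 1, 25 without hypoxia 3, 22 without the unnumbered air library and 60 without air 3, beside 162, 286, 108 and 395 higher genes in the same order. Leaving out a library also loosens the rule, since fewer libraries must lie apart, so part of any rise can come from that. Adding 0.1 CPM in place of 1 CPM before the log gave 312 higher and 48 lower genes. The asymmetry grew with the size of the difference. Without a fold limit, 4387 genes (25.97%) were higher and 3964 (23.5%) lower in both hypoxia libraries. Beyond 0.5 log2 units the counts were 796 and 121, and beyond 2 log2 units they were 26 and 0. The median log2FC of all genes was 0.00, and the lowest, -2.11 for a pentatricopeptide repeat hit (locus 447835), belonged to a gene with overlapping libraries, at 0.000387 and 37.9 CPM under hypoxia and 44.7 and 14.9 CPM in air.

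By limma, a linear model that moderates each gene's variance with that of all genes, 0 genes passed an adjusted p of 0.01 with a log2FC beyond 1 in either direction (0%). At an unadjusted p below 0.05 the same fit held 193 higher genes (1.14%) and 3 lower genes (0.0178%). The smallest limma adjusted p was 0.081, shared by 3 genes that were picked out here for that value. One was the hit of cyclin P4;1 (locus 48560), with 74.4 and 70.8 CPM under hypoxia and 36.1 and 34.3 CPM in air. Another was the hit of allene oxide synthase (locus 133317), an enzyme of jasmonate synthesis, with 123 and 119 CPM under hypoxia and 63.0 and 62.6 CPM in air. The last was locus 420429, which has no best hit, with 24.4 and 25.97 CPM under hypoxia and 7.59 and 8.66 CPM in air. All 3 had replicates that nearly coincided, whereas the genes with the largest changes did not. With 2 libraries against 2, an exact permutation test of a single gene cannot go below p = 0.333. No single gene is therefore called changed, and the values of each library carry the description.

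**Figure D1:**
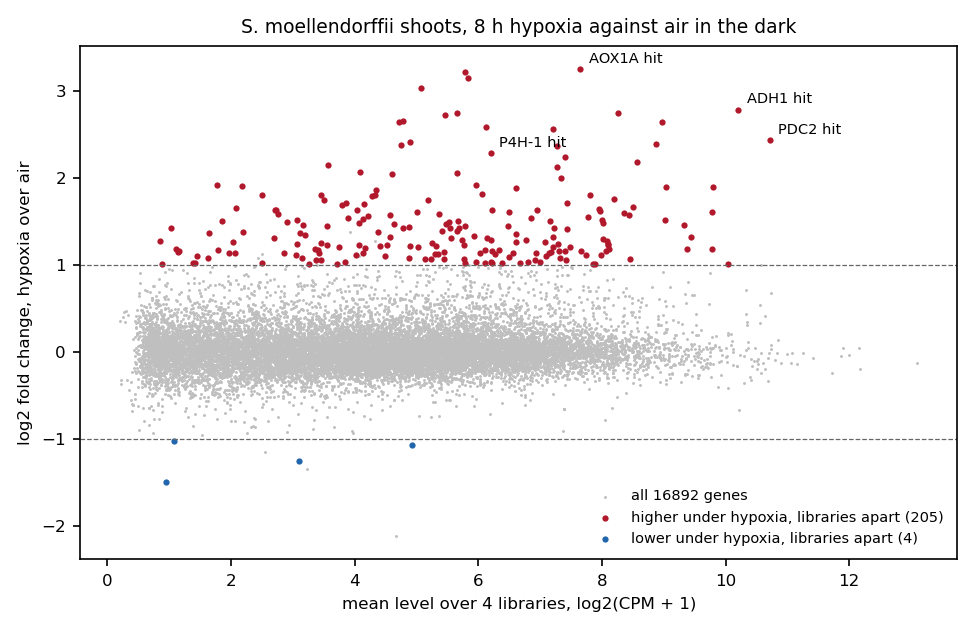
Mean level over the 4 libraries as log2(CPM + 1), against the log2FC (hypoxia minus air), for every gene. Grey points are all 16892 genes, red points the 205 higher and blue points the 4 lower genes whose libraries do not overlap, and the dashed lines mark a log2 fold change of 1 in either direction. The red points reach 3.25, while the blue points end at -1.49.

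Among the 205 higher genes, the libraries had nearly always the same order. Hypoxia 1 lay above hypoxia 3 in 199 genes (97.1%) and air 3 above the unnumbered air library in 197 (96.1%). Both held in 191 (93.2%), while the place of hypoxia above air was fixed by how the genes were chosen. Over the 12805 genes above 5 CPM, hypoxia 1 was above hypoxia 3 in 50.5% and air 3 above the unnumbered library in 51.8%. The full order, with hypoxia above air, held in 13.6% of them, where no such choice was made. Summed over the 205 genes, the level was 42120 and 33686 CPM under hypoxia, against 8967 CPM in the unnumbered air library and 18265 CPM in air 3. Air 3 thus lay above the other air library in these genes, so the spread within air was wide where the difference from hypoxia was large. The median log2 difference of hypoxia from the unnumbered air library was 1.81 and from air 3 it was 0.96. With air 3 alone as control, 108 genes were higher (0.639%), 91 of them among the 205. With the unnumbered library alone, 395 were higher (2.34%), 202 of them among the 205.

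**Figure D2:**
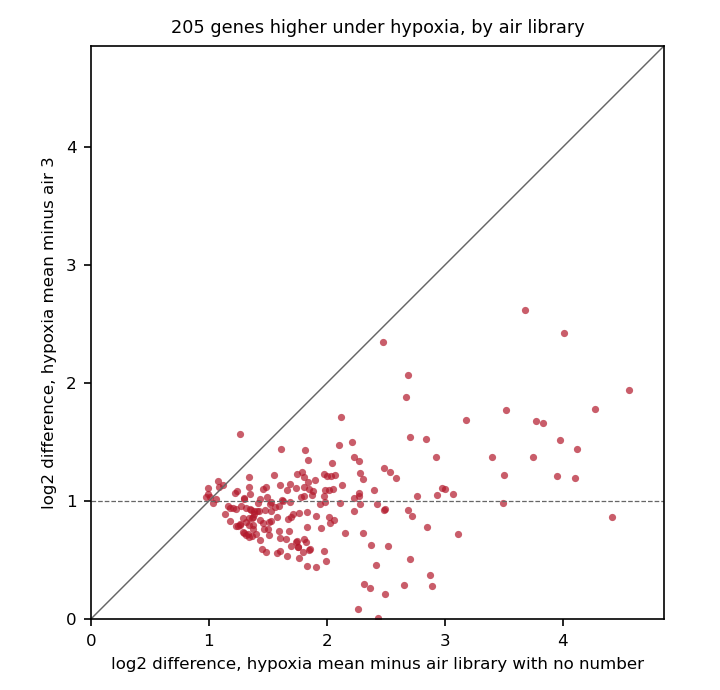
Each point is one of the 205 genes higher under hypoxia. The horizontal axis is the mean of the hypoxia libraries minus the unnumbered air library and the vertical axis the same mean minus air 3, both as log2(CPM + 1). Points below the diagonal, 197 of 205, differed more from the unnumbered library, and the dashed line marks 1 log2 unit from air 3.

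The sugar and fermentation route was led by a few abundant genes. Sucrose synthase cleaves sucrose without spending ATP, and the table held a single hit of it, that of SUS3 (locus 268237). It had 885 and 728 CPM under hypoxia, against 133 CPM in the unnumbered air library and 350.4 CPM in air 3. Its log2FC was 1.89 ± 0.43 (SE, n = 2 each; limma adjusted p = 0.153), with 2.59 against the unnumbered library and 1.19 against air 3. Hypoxia was higher than either air library, and the air libraries differed from each other more than the hypoxia libraries did. The 4 neutral invertases, which cleave sucrose to hexoses, ranged in log2FC from 0.00 to 0.15, and none was higher by the rule, where 1.21% of all genes were.

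Of the 4 ATP-dependent phosphofructokinases, which commit hexose phosphate to glycolysis, 2 were higher (50%, against 1.21% of all genes) and the others were not. The PFK2 hit (locus 438337) had 487 and 405 CPM under hypoxia, against 90.6 and 188 CPM in air. The PFK3 hit (locus 150344) had 349 and 289.8 CPM under hypoxia, against 72.6 and 160.1 CPM in air. These gave log2FC of 1.76 ± 0.33 (limma adjusted p = 0.127) and 1.55 ± 0.35 (limma adjusted p = 0.153), with air 3 in each case between the unnumbered library and hypoxia. PFK5 is a plastid enzyme in *A. thaliana*, and its 2 hits went another way. Locus 146031 had 38.1 and 45.1 CPM under hypoxia and 63.2 and 55.2 CPM in air, a log2FC of -0.50 ± 0.11 (limma adjusted p = 0.153) without overlap. The other PFK5 hit (locus 187341) overlapped between the groups, at 193 and 194 CPM under hypoxia and 171 and 211 CPM in air. Further along glycolysis, 2 of 28 other enzymes were higher (7.14%, against 1.21% of all genes), and the median log2FC of the 28 was 0.06. The higher 2 were a hit of the cytosolic glyceraldehyde-3-phosphate dehydrogenase GAPC2 (locus 169833, log2FC 1.06 ± 0.22, limma adjusted p = 0.145) and one of phosphoglycerate kinase 1 (locus 96742). With air 3 alone as control, 0 of the 28 were higher, and the GAPC2 hit was 0.72 log2 units above it. The annotation of the phosphoglycerate kinase hit does not say whether it acts in cytosolic glycolysis or in the plastid. The phosphoglycerate kinase hit had 134 and 117 CPM under hypoxia and 18.3 and 88.0 CPM in air. Its log2FC of 1.61 ± 0.66 (limma adjusted p = 0.326) was 0.51 against air 3 alone.

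Pyruvate decarboxylase, the entry to ethanol, was the most abundant of the higher genes. The PDC2 hit (locus 157772) had 2996 and 2564 CPM under hypoxia, against 304 and 858 CPM in air. The log2FC was 2.44 ± 0.46 (limma adjusted p = 0.129), or 3.18 against the unnumbered library and 1.69 against air 3. Hypoxia stood well clear of both air libraries. The PDC3 hit (locus 406669) had 0.905 and 1.97 CPM under hypoxia and 1.42 and 1.86 CPM in air. A further member annotated as a thiamine pyrophosphate dependent decarboxylase (locus 178690) had 133 and 135 CPM under hypoxia and 138 and 134 CPM in air. The groups overlapped in both, and 1 of the 4 list members was higher, where 1.21% of all genes were.

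The alcohol dehydrogenase that ends ethanolic fermentation followed the same pattern. Of 4 ADH1 hits, locus 145705 had 2135 and 1762 CPM under hypoxia, against 111 and 712 CPM in air. With air 3 at 6.44 times the unnumbered library, the log2FC of 2.78 had an SE of 0.81 (limma adjusted p = 0.213) and was 4.12 or 1.44 depending on the air library used. The remaining ADH1 hits (loci 89583, 412432 and 236309) had log2FC of 0.19, 0.11 and 0.04, and their libraries overlapped. Lactate dehydrogenase is the other fermentative branch. Of its 2 hits, locus 405919 had 20.6 and 20.1 CPM under hypoxia and 16.4 and 16.3 CPM in air, a log2FC of 0.30 ± 0.08 (limma adjusted p = 0.203), and locus 92401 overlapped, at 29.8 and 30.6 CPM under hypoxia and 21.98 and 30.3 CPM in air. Alanine aminotransferase turns pyruvate to alanine, a major product of hypoxic plant tissue. Its AlaAT2 hit (locus 91640) had 1542 and 1214 CPM under hypoxia, against 235 and 576 CPM in air (log2FC 1.89 ± 0.41, limma adjusted p = 0.148). It was the only one of 6 genes for alanine and GABA metabolism that was higher, where 1.21% of all genes were.

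**Figure D3:**
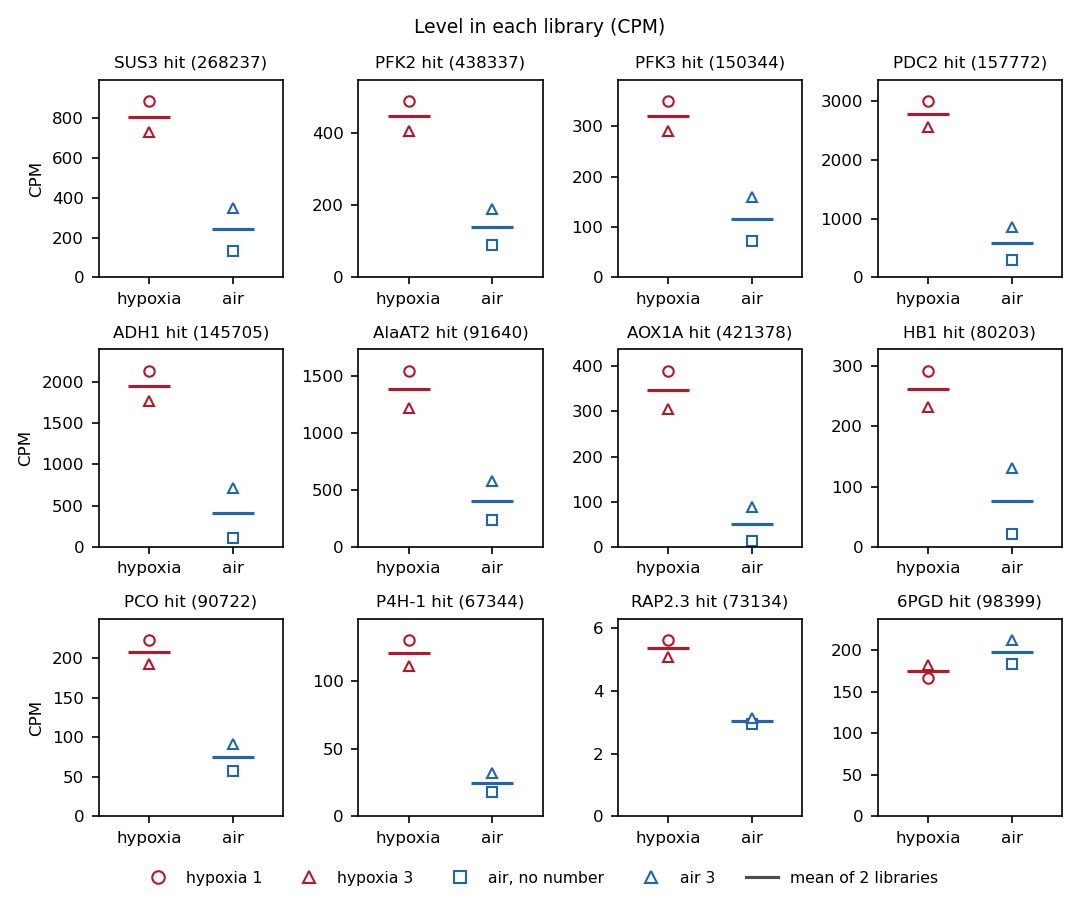
Level in CPM (vertical axes, from 0) of 12 genes in each library, hypoxia on the left and air on the right, with horizontal bars at the mean of 2 libraries. Both hypoxia libraries lie above both air libraries in 11 genes, air 3 (triangles) lies above the unnumbered air library (squares) in all 12, and the 6-phosphogluconate dehydrogenase hit has a slightly lower mean under hypoxia (167 and 183 CPM) than in air (183 and 212 CPM).

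Genes tied to the mitochondrion included the largest log2FC of the table. Alternative oxidase passes electrons from ubiquinol straight to oxygen, bypassing the later respiratory complexes. Of its 7 genes, all hits of AOX1A, locus 421378 had 390.2 and 306 CPM under hypoxia, against 13.7 and 89.4 CPM in air. That is a log2FC of 3.25 ± 0.79 (limma adjusted p = 0.165), with 4.56 against the unnumbered library and 1.94 against air 3. Its 6 relatives lay between -0.09 and 0.48, so a single gene carried the difference. The hit of a HIG1-domain protein annotated as hypoxia-responsive (locus 409480), a family known from yeast and animals as assembly factors of the respiratory chain, had 274 and 205 CPM under hypoxia and 16.7 and 90.9 CPM in air. Its log2FC was 2.56 ± 0.73 (limma adjusted p = 0.205). The other genes of its list (loci 102690 and 152721) had log2FC of 0.22 and 0.13. The subunits of the respiratory complexes (33 genes) and the citric acid cycle enzymes (26 genes) had medians of 0.00 and 0.01. Neither list had a higher gene, where 1.21% of all genes were higher. The 3 type II NAD(P)H dehydrogenases, which bypass complex I, had none either.

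Phytoglobins bind oxygen tightly and scavenge nitric oxide. The hemoglobin 1 hit (locus 80203) had 292 and 231 CPM under hypoxia, against 22.1 CPM in the unnumbered air library and 131 CPM in air 3. Its log2FC of 2.24 ± 0.76 (limma adjusted p = 0.257) was 0.99 against air 3 alone, just under the limit of 1. Both hits of hemoglobin 3, a truncated globin, were higher without overlap but by less, with log2FC of 0.75 for locus 110083 and 0.18 for locus 444094. In nitrate assimilation, 0 of 4 genes were higher by the rule, where 1.21% of all genes were, so this count says little about the list. The nitrite reductase hit (locus 178021) had 887 and 825 CPM under hypoxia and 456 and 644 CPM in air.

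Among oxygen sensing genes, 1 PCO hit was higher by the rule. PCO enzymes oxidise the N-terminal cysteine of the ERFVIIs. The hit of PCO4 (locus 90722, annotated only by its domain of unknown function) had 223 and 193 CPM under hypoxia, against 57.1 and 92.2 CPM in air. With a log2FC of 1.504 ± 0.22 (limma adjusted p = 0.103) it was above 1 against either air library (1.85 for the unnumbered one and 1.16 for air 3). The hit of PCO1 (locus 68172) had 41.2 and 36.8 CPM under hypoxia and 33.5 and 37.8 CPM in air, with overlap. The arginyltransferase ATE1 acts next in the pathway, and its hit (locus 90336) had 91.8 and 76.7 CPM under hypoxia and 48.5 and 59.3 CPM in air (log2FC 0.64 ± 0.13, limma adjusted p = 0.144). The ubiquitin ligase PRT6, which recognises the arginylated protein, had hits at log2FC of -0.04 (locus 79007) and -0.09 (locus 438209). In all, 0 of 12 N-degron enzymes other than PCOs were higher, where 1.21% of all genes were.

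Of the ERFVIIs, 2 genes had the *A. thaliana* member RAP2.3 as best hit. Locus 19890 was level, with 29.6 and 24.4 CPM under hypoxia and 28.5 and 24.5 CPM in air. Locus 73134 was low but apart, with 5.61 and 5.08 CPM under hypoxia and 2.95 and 3.12 CPM in air. Its log2FC was 0.65 ± 0.13 (limma adjusted p = 0.135), and its air libraries were close to each other. The SmERF1 gene that the study cloned is not analysed here. Outside group VII, 4 of 43 AP2/ERF genes were higher (9.30%, against 1.21% of all genes), with a median log2FC of 0.17 over the list. Both hits of ERF9, a repressor of defence genes in *A. thaliana*, were among them. Locus 72880 had 135 and 87.2 CPM under hypoxia, against 6.09 and 46.3 CPM in air, and locus 49950 had 196 and 144 CPM under hypoxia, against 41.6 and 78.0 CPM in air. The others were hits of RAP2.6L (locus 73177, log2FC 1.63) and of the DREB-type factor DEAR3 (locus 73155, log2FC 1.63), the second of which was only 0.38 above air 3.

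Each of the other regulator lists (LBD, heat shock, MYB, WRKY, NAC and bHLH factors, and calcium sensors and kinases) held at most 1 higher gene. LBD37 represses nitrogen response genes in *A. thaliana*, and its hit (locus 37570) had 32.7 and 26.9 CPM under hypoxia, against 5.36 and 11.1 CPM in air (log2FC 1.81 ± 0.30, limma adjusted p = 0.108). It was 1 of 10 LBD genes. A hit of the heat shock factor HSFA1D (locus 107503) had 66.6 and 42.5 CPM under hypoxia and 9.97 and 22.8 CPM in air, while the 7 other genes of its list lay between -0.10 and 0.17. Of 49 MYB genes, the MYB97 hit (locus 81112) was higher, with a log2FC of 1.46, and of 17 WRKY genes the WRKY42 hit (locus 29146), with 1.17. None of 16 NAC or 45 bHLH genes was. The EF-hand calcium sensor hit at locus 69135 had 297 and 195 CPM under hypoxia and 20.4 and 103 CPM in air, and was 1 of 61 genes for calcium sensors and kinases. Among the genes of hormone synthesis and signalling, 0 of 7 for ethylene, 1 of 31 for jasmonate and 1 of 49 for abscisic acid were higher. Of all genes 1.21% were higher, so 0 or 1 higher gene in lists of these sizes says little about the list as a whole.

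Several of the higher genes encode enzymes that use molecular oxygen as a substrate. Prolyl 4-hydroxylase modifies cell wall glycoproteins, and the P4H-1 hit (locus 67344) had 130.1 and 111 CPM under hypoxia, against 18.04 and 31.8 CPM in air. This log2FC of 2.28 ± 0.25 (limma adjusted p = 0.103) was less dependent on the air library than those of fermentation, at 2.67 and 1.89. The second prolyl 4-hydroxylase (locus 174666) was at 0.02. Stearoyl-ACP desaturases place the first double bond in plastid fatty acids. Of 12 genes 3 were higher, all hits of the same *A. thaliana* protein: locus 231587 had 404 and 344 CPM under hypoxia and 90.4 and 161 CPM in air, and loci 418317 and 411153 had log2FC of 1.61 and 1.51. Of 10 membrane fatty acid desaturases 0 were higher, where 1.21% of all genes were.

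Respiratory burst oxidases reduce oxygen to superoxide at the plasma membrane. Of 11 genes, 2 hits of RBOHF were higher. Locus 266977 had 530.1 and 451 CPM under hypoxia and 136 and 191 CPM in air, and locus 110111 had 239.9 and 193 CPM under hypoxia and 66.1 and 96.5 CPM in air. Their log2FC were 1.59 ± 0.18 and 1.42 ± 0.20 (limma adjusted p = 0.103 for either gene), and both kept more than 1 log2 unit against each air library. Of 7 jumonji histone demethylases, which need oxygen and 2-oxoglutarate, the PKDM7D hit (locus 170257) had 399 and 333 CPM under hypoxia and 129.9 and 167 CPM in air (log2FC 1.30 ± 0.15, limma adjusted p = 0.103). Cytochromes P450 had 2 of 213 higher (0.939%), no more than the 1.21% of all genes. They were a hit of CYP707A3, which breaks down abscisic acid (locus 96503, log2FC 1.49 ± 0.19, limma adjusted p = 0.103), and one of CYP703A2 (locus 235879). The CYP703A2 hit had 196 and 174 CPM under hypoxia and 51.8 and 67.8 CPM in air (log2FC 1.62 ± 0.14, limma adjusted p = 0.103). In *A. thaliana* that enzyme makes pollen wall precursors, and the spore wall markers as a whole (32 genes, among them hits of MS2, ACOS5 and TKPR1, and none of PKSA or PKSB) summed to 1485 and 1386 CPM under hypoxia and to 1038 and 1232 CPM in air, with a median log2FC of 0.01. Most of that sum came from the hits of 2 cytochromes P450, CYP703A2 (11 genes, locus 235879 among them) and AT1G69500 (9 genes). The MS2 hits summed to 14.8 and 11.0 CPM under hypoxia and 16.0 and 11.8 CPM in air, and the ACOS5 hit had 27.0 and 25.6 CPM under hypoxia and 33.5 and 29.2 CPM in air. Of further oxygen-using families, 1 of 16 lipoxygenases, 1 of 76 other 2-oxoglutarate oxygenases, 0 of 16 carotenoid cleavage dioxygenases and 0 of 13 sterol enzymes were higher.

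Cell wall genes held the list with the most higher members. Xyloglucan endotransglucosylase/hydrolases (XTHs) cut and rejoin the xyloglucan that tethers cellulose, and 6 of 17 were higher (35.3%, against 1.21% of all genes), all of them among 11 hits of XTH5. Locus 98543 had 119 and 76.9 CPM under hypoxia, against 5.01 and 16.98 CPM in air, and locus 97913 had 127 and 76.2 CPM under hypoxia, against 6.75 and 15.1 CPM in air. The log2FC were 3.22 ± 0.51 (limma adjusted p = 0.105) and 3.15 ± 0.39 (limma adjusted p = 0.103). Loci 119243 and 98674 followed with 2.41 and 2.38. Locus 119243 had nearly equal air libraries, at 7.78 and 8.57 CPM, against 61.5 and 37.1 CPM under hypoxia. A further XTH (locus 140273, a hit of another *A. thaliana* gene) was the most abundant and fell just short of the limit, with 2290 and 1777 CPM under hypoxia, against 1082 and 942 CPM in air. Whether the near-equal XTH5 hits are separate genes could not be judged: the genome assembly of this species holds both haplotypes, read assignment can split between near-identical copies, and sequences were not used here.

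Expansins loosen walls without cutting them, and they were the list with the lowest median among those of at least 10 genes. Of 16 expansins 10 were lower without overlap at any size (62.5%, against 23.5% of all genes) and 1 was higher. The median log2FC was -0.29, and none passed 1 log2 unit. The EXPB3 hit (locus 171427) had 6.64 and 9.39 CPM under hypoxia and 13.3 and 17.5 CPM in air (log2FC -0.87 ± 0.20, limma adjusted p = 0.153). The EXPA9 hit (locus 231226) had 53.1 and 41.5 CPM under hypoxia and 66.4 and 79.5 CPM in air (log2FC -0.62 ± 0.15, limma adjusted p = 0.160). In both, air 3 was farther from hypoxia than the unnumbered library, the opposite of the order seen in the higher genes. Cellulose synthases had 0 of 16 higher by the rule, where 1.21% of all genes were, so this count says little about the list. Without overlap at any size, 7 of the 16 were higher and 1 was lower, against 4387 and 3964 of all 16892 genes. The CESA1 hit (locus 141535, log2FC 0.64) had 432 and 372 CPM under hypoxia and 259 and 256 CPM in air.

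**Figure D4:**
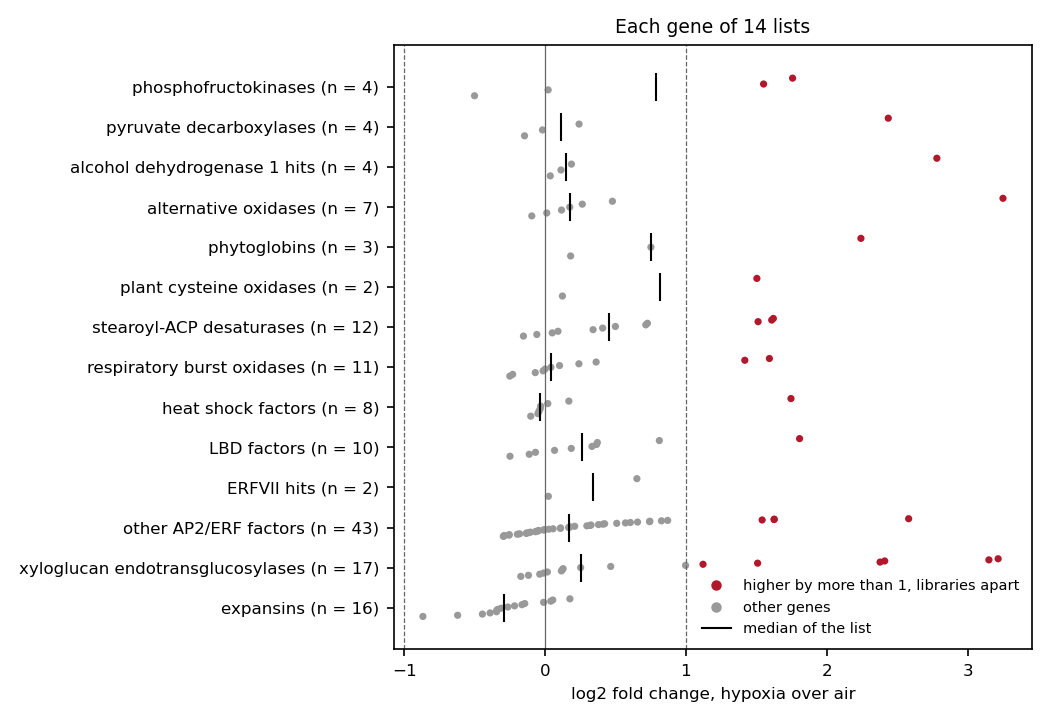
Log2FC, hypoxia minus air (horizontal axis), for every gene of 14 lists (rows, n in brackets). Red points are higher by more than 1 with libraries apart, grey points are the other genes, black bars mark the list median, and dashed lines mark a log2 fold change of 1 in either direction. In most lists 1 to 3 red points stand far from relatives near 0, and the expansins lie mostly below 0.

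Of the best hits shared by several genes and chosen here for holding a higher gene, most held exactly 1. The 170 higher genes with a best hit spread over 146 *A. thaliana* genes, of which 95 were the best hit of several genes. In 82 of those 95, exactly 1 gene was higher, in 9 more than 1 but not all, and in 4 all of them. The 421 other genes with the same best hits had a median log2FC of 0.02, and 91.4% of them lay within 0.5 of 0, close to the 94.1% of all genes. These best hits were chosen for holding a higher gene, and the 421 leave out every higher gene. Both results are therefore partly set by that choice. Complete families were those of AT3G03341, a protein of unknown role with 5 of 5 genes higher, a class 3 lipase with 3 of 3, and ERF9 and SKU5 SIMILAR 4 with 2 of 2 each. The AT3G03341 hits at loci 147726 and 133730 had log2FC of 2.73 and 2.64. Locus 147726 had 80.7 and 65.5 CPM under hypoxia, against 4.39 and 22.1 CPM in air.

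The remaining genes of the 20 with the largest log2FC had less defined roles. The hits at loci 109970 and 123769 belong to the cupins, a family that includes germin-like proteins, with log2FC of 2.75 and 2.65. The WTF1 hit (locus 438174), named after a plastid intron splicing factor of maize, had 598 and 433 CPM under hypoxia, against 34.7 and 160.5 CPM in air. The AT5G41761 hit (locus 440562) had 905 and 653 CPM under hypoxia, against 35.1 CPM in the unnumbered air library and 421 CPM in air 3. Its log2FC of 2.64 ± 1.07 (limma adjusted p = 0.320) was 0.86 against air 3 alone, the lowest such value among the 20. Genes without a best hit made up 35 of the 205 (17.1%), near their 13.9% share of the table. The highest of them were locus 405948, with 68.8 and 44.4 CPM under hypoxia and 1.91 and 15.3 CPM in air, and locus 438558, with 915 and 604 CPM under hypoxia and 69.4 and 286 CPM in air. Locus 143086 had 257 and 236 CPM under hypoxia and 36.9 and 83.7 CPM in air, and loci 404226 and 402903 had log2FC of 2.06 and 1.90.

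Of the *A. thaliana* core hypoxia genes, a published set induced across its cell types, 10 *S. moellendorffii* genes had a member as best hit. They are not 10 separate core genes, since ADH1 was the best hit of more than 1 of them. By the rule 40% were higher, against 1.21% of all genes. The 4 higher ones were the ADH1, PDC2 and hemoglobin 1 hits and a hit of the haloacid dehalogenase-like hydrolase AT5G44730 (locus 167838). That gene had 668 and 549 CPM under hypoxia, against 83.9 and 209.8 CPM in air (log2FC 2.18 ± 0.41, limma adjusted p = 0.127). A further 2 were higher without overlap by less than 1 log2 unit, the AT1G19530 hit (locus 447777, log2FC 0.73) and the AT3G10020 hit (locus 405387, log2FC 0.20). The list median was 0.47.

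Stress, secondary metabolism and transport each gave few higher genes. A cytosolic HSP70 hit (locus 443126) had 609.7 and 378 CPM under hypoxia, against 83.0 CPM in the unnumbered air library and 313 CPM in air 3. It was 2.52 log2 units above the unnumbered library and 0.62 above air 3. The small heat shock proteins (22 genes) had 0 higher. In the flavonoid pathway 1 of 10 was higher, a chalcone synthase hit (locus 230794) with 32.2 and 29.0 CPM under hypoxia, against 5.78 and 10.2 CPM in air (log2FC 1.86 ± 0.24, limma adjusted p = 0.103). Another chalcone synthase hit (locus 270496) had 194 and 310.0 CPM under hypoxia and 398 and 309 CPM in air, with overlap. Late embryogenesis abundant proteins had 2 of 23 higher and a median of 0.31, but 0 of 23 were higher against air 3 alone. Among 28 sugar transporters, 16 aquaporins, 17 universal stress proteins and 11 autophagy genes 0 were higher, where 1.21% of all genes were. The sugar transporter hit STP7 (locus 170916) came closest, with 1215 and 1016 CPM under hypoxia and 541 and 649.9 CPM in air. Class II trehalose-6-phosphate synthase TPS5 had a hit at locus 117822 with 255 and 227 CPM under hypoxia and 119.5 and 126 CPM in air, a log2FC of 0.97 ± 0.08 (limma adjusted p = 0.103) in which all replicates nearly coincided.

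The 4 lower genes were of low or moderate level. An aspartyl protease hit (locus 413681) had 4.26 and 3.94 CPM under hypoxia, against 11.0 and 11.3 CPM in air (log2FC -1.25 ± 0.11, limma adjusted p = 0.103). A hit of the CAP family, which includes pathogenesis-related protein 1 (locus 233855), had 14.7 and 23.3 CPM under hypoxia, against 42.1 and 38.3 CPM in air (log2FC -1.07 ± 0.21, limma adjusted p = 0.130). In both genes the air libraries were close together. The other two were under 5 CPM: a SCARECROW-like 14 hit (locus 32919), listed at or near 0 under hypoxia with 2.32 and 1.38 CPM in air, and a lectin kinase hit (locus 77831), with 0.666 and 0 CPM under hypoxia and 0.680 and 3.11 CPM in air.

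Most of the basic cell functions were level. The 191 ribosomal protein genes had a median log2FC of 0.00, the 50 photosystem and antenna genes -0.07, the 21 histones 0.05, the 40 cell cycle genes 0.03 and the 15 circadian clock genes 0.00, with 0 higher and 0 lower by the rule in each list. The hit of 6-phosphogluconate dehydrogenase that the study used as housekeeping gene (locus 98399) had 167 and 183 CPM under hypoxia and 183 and 212 CPM in air (log2FC -0.17 ± 0.10, limma adjusted p = 0.453). In all, 35 of 71 lists had no higher gene, and none had a lower one. Of all genes 1.21% were higher and 0.0237% lower. Counts of 0 are thus near what lists of such sizes would hold at those shares. Of the 205 higher genes, 52 were in a list. The share of all genes that the lists hold was not counted, so the 52 cannot be set against it.

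**Figure D5:**
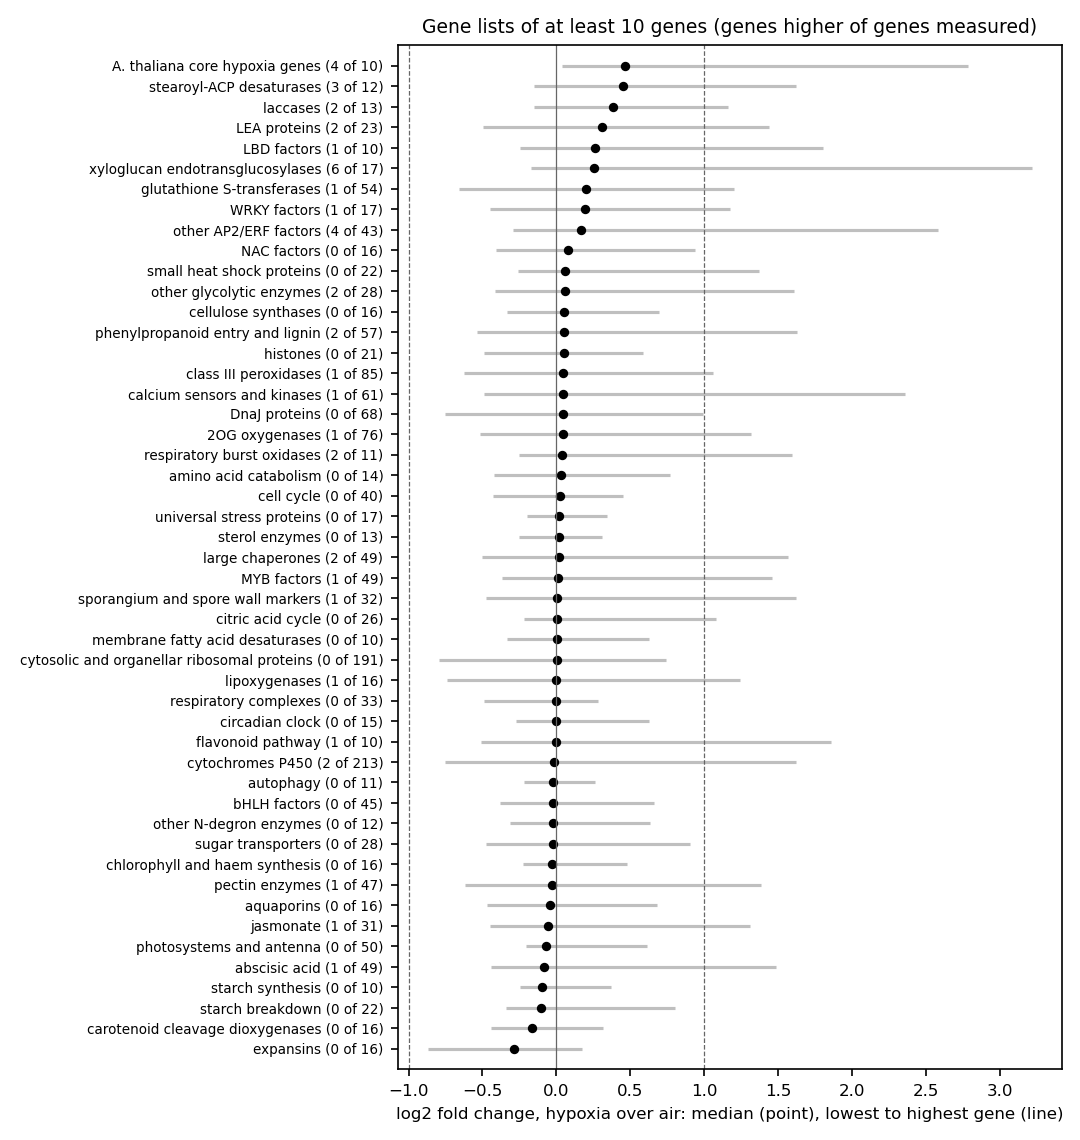
Median log2FC, hypoxia minus air (points), and the range from the lowest to the highest gene (lines) for lists of at least 10 genes, ordered by median, with the number of higher genes of all genes in brackets. The *A. thaliana* core hypoxia genes have the highest median (0.47) and the expansins the lowest (-0.29), and most lists centre on 0 with a single long arm to the right.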

How the data were processed

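The authors quantified the stranded poly(A) libraries with Kallisto against the transcriptome of the species, excluded genes above 20 reads in no sample and deposited log2 CPM values scaled by TMM in edgeR. Versions and the annotation release are not given in the sources used here. The deposited log2 values were converted to CPM, with minus infinity read as 0. Only 53.6 to 55.4% of low values were whole reads within 0.1 read, as fractional assignment gives, so no count test was run, and library sizes are estimates. The deposited fold changes and FDR of the authors were not used. Log2(CPM + 1) was tested with limma 3.58.1 (R 4.3.3; variance trend, Benjamini-Hochberg adjustment over 16892 genes), hypoxia minus air, with all 4 libraries and no covariate. SE are those of limma. Its p-values set the difference between the groups against the variance within them, moderated over all genes, and cover these samples only. Named genes were all members with a mean of at least 1 CPM of the lists for sucrose synthase, phosphofructokinase, pyruvate decarboxylase, ADH1, lactate dehydrogenase, phytoglobin, PCO and ERFVII, the 20 largest increases and up to 10 decreases with at least 5 CPM in the higher group, up to 4 such genes (or up to 2 without one) of each other list, and 5 without a best hit. Others named were chosen after their values were seen. The members and lists were chosen with earlier results of these data known. The fit was also run on simulated data in which every gene varied independently between libraries. That setting lacks the shared library order of the higher genes, so it does not show how the fit behaves here.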

Additional observations from a re-analysis of the deposited data

How the results depend on the processing

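With 2 libraries a group, a single library moved the counts most. Without air 3, limma called 164 higher and 3 lower genes, assuming that the lone air library varied like the hypoxia libraries. Of the 164 genes, 126 were among the 205 and in 157 hypoxia also exceeded air 3. Leaving out any of the other libraries gave 0, so the range was 0 to 164 higher and 0 to 3 lower genes. With all 4 libraries, every other limma setting run gave 0 at an adjusted p of 0.01, with smallest adjusted p from 0.0155 to 0.237. At an adjusted p of 0.05, robust moderation called 14 higher and 1 lower gene, and summing genes with the same best hit called 32 and 1 of 8512 sums. The count of 205 higher genes ranged from 108 without the unnumbered air library to 395 without air 3 (286 without hypoxia 3, 162 without hypoxia 1). Adding 0.1 CPM before the log raised it to 312, and summing by best hit left 75. The count of 4 lower genes ranged from 17 without hypoxia 1 to 60 without air 3, with 22 without the unnumbered air library and 25 without hypoxia 3. Leaving out a library also loosens the rule, since fewer libraries must lie apart. Adding 0.1 CPM gave 48 lower genes, adding 5 CPM gave 0 and summing by best hit gave 1. The cause was not tested. Across all settings, 43 values of named genes moved by more than the spread between replicates. No gene higher or lower by the rule changed sign. Libraries that lie apart fix the sign when one is left out or another amount is added before the log, so this is no test. Library totals shifted the median log2FC of all genes to -0.05. No paired analysis was possible because the columns of the groups share only the number 3: the sample titles have 1 and 3 in both groups, but no air column has the number 1. Summing haplotype copies was not run, since no protein sequences were used. Fractional read assignment and 2 replicates limit what can be told for low genes.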
